A study of Homo sapiens with 12 samples.

Results

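The MAP kinase phosphatases described here are 10 dual-specificity phosphatase genes, DUSP1, DUSP2, DUSP4, DUSP5, DUSP6, DUSP7, DUSP8, DUSP10, DUSP14 and DUSP16. They were chosen by symbol from the 19128 gene symbols of the gene expression table, and each stood on a single line there. Polyadenylated RNA came from HT-29, a human colorectal adenocarcinoma line, whose labels name a lentiviral MLKL knockdown (shMLKL) or a control hairpin against GFP (shGFP). The 4 groups of the replicated experiment had 2 libraries each: shMLKL cells treated with TBZ for 5 h, shMLKL cells in DMSO, shGFP cells treated with TBZ for 5 h, and shGFP cells in DMSO. An earlier experiment had 4 single libraries: parental HT-29 cells treated with TBZ for 4 h, parental cells in DMSO, shMLKL cells treated with TBZ for 12 h, and shMLKL cells in DMSO. TBZ was 20 ng/mL TNFa, 2 µM BV6 (an antagonist of inhibitor of apoptosis proteins) and 30 µM zVAD-fmk (a caspase inhibitor), a mixture that triggers necroptosis, the lytic death executed by the pseudokinase MLKL. The labels give no time for DMSO, and nothing in them says whether a line is 1 clone or whether the paired libraries of a group are separate cultures. The p-values therefore refer to library-to-library spread, which may be technical.

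MAP kinases (ERK, JNK and p38) are switched on by phosphorylation of a threonine and a tyrosine in the activation loop, and MAP kinase phosphatases remove both phosphates. Many of these phosphatase genes are themselves transcribed in response to the kinases, so they act as negative feedback. By location and substrate they fall into inducible nuclear enzymes (DUSP1, DUSP2, DUSP4, DUSP5), cytoplasmic enzymes selective for ERK (DUSP6, DUSP7) and enzymes that prefer JNK and p38 (DUSP8, DUSP10, DUSP16). DUSP14 is a small atypical member without the kinase-docking domain of the others.

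MLKL averaged 0.523 FPKM (fragments per kilobase of transcript, scaled to library size) in shMLKL TBZ cells and 2.00 FPKM in shGFP TBZ cells. In DMSO it averaged 0.575 FPKM in shMLKL cells and 3.92 FPKM in shGFP cells, lower in shMLKL in both conditions (log2 change −0.99 with limma adjusted p = 0.000152 under TBZ, and −1.64 with limma adjusted p = 9.87e-06 under DMSO). Relative depth lay between 82.9 and 100.0% of the deepest library, lowest in the shMLKL TBZ pair (82.9 and 84.7%). Genes at 1 FPKM or more numbered 9606 to 9638 in shMLKL libraries and 9796 to 10047 in shGFP libraries, and the part of either in the results below was not tested. Of 11 epithelial markers 6 to 9 averaged at least 1 FPKM in every group. KRT8 and KRT18 were listed at 0 in 7 of 8 libraries, and whether these were failed estimates was not tested. No member was at 0. The leukocyte markers CD3E and MS4A1 were listed at 0. Of the 7 leukocyte markers, 2 averaged at least 1 FPKM in shGFP DMSO cells and 1 in each other group. The sum over the 7 stayed between 4.59 and 6.71 FPKM. In bulk RNA a change in the share of cells that make a transcript and a change in its level per cell cannot be told apart.

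Under TBZ, 7 of the 10 phosphatase genes rose in shMLKL cells, DUSP4 fell, and DUSP2 and DUSP7 did not pass the test. In this comparison 37.5% of the 10364 genes tested were called at a limma adjusted p under 0.05, 20.0% as higher and 17.6% as lower. The median member change was 0.43 on the log2(FPKM + 1) scale, against −0.00437 over all genes. In shGFP cells 9 members rose and DUSP4 fell, where 56.4% of all genes were called, 19.1% as higher and 37.3% as lower. The median member change there was 1.47, against −0.12 over all genes. The TBZ effect was smaller, or in DUSP4 more negative, in shMLKL cells for 8 members by the test of the difference itself, where 22.3% of all genes were called, 7.66% as lower and 14.6% as higher. The median difference over the members, shMLKL minus shGFP, was −0.72, against 0.10 over all genes. All 10 members averaged at least 1 FPKM in some group. DUSP2 did so only in shGFP TBZ cells, the group in which it is high. Its passing the filter is no support for its rise, its negative difference or its lower level in shMLKL cells. DUSP7 averaged at least 1 FPKM only in shGFP cells (1.87 FPKM under TBZ, 1.16 FPKM in DMSO), where it is higher. Its passing is no support for its lower level in shMLKL cells. Setting library medians equal or quantile normalization turned no member's direction in these comparisons. The share of higher calls among all called genes moved to 44.5% in shGFP cells with medians set equal, against 33.9% as deposited, and in the difference to 38.9%, against 65.6% as deposited.

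**Figure D1:**
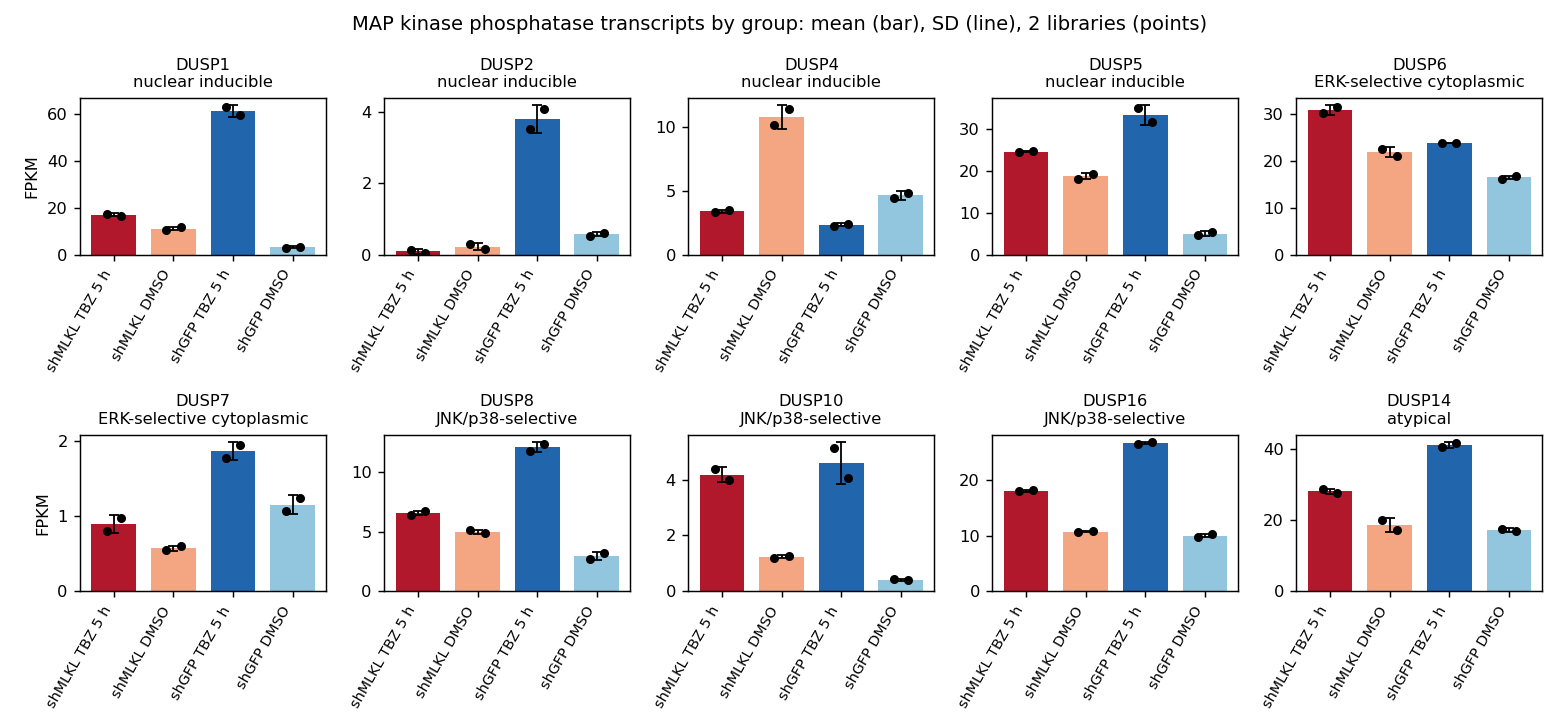
Level of each phosphatase transcript in the 4 groups of the replicated experiment, in FPKM on axes that start at 0. Bars are group means, lines the SD, and points the 2 libraries; DUSP1 reached 63.0 and 59.6 FPKM in shGFP TBZ cells, above all other libraries, whereas DUSP4 was lowest there (2.28 and 2.43 FPKM).

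Among the inducible nuclear members, DUSP1, an immediate early gene whose enzyme dephosphorylates p38, JNK and ERK, had the widest range of group means in FPKM and in log2(FPKM + 1), though not as a ratio, where DUSP2 ranged further. In shMLKL cells it stood at 17.5 and 16.7 FPKM under TBZ, against 10.6 and 11.7 FPKM in DMSO. Its shGFP libraries stood at 63.0 and 59.6 FPKM under TBZ, against 2.86 and 3.43 FPKM in DMSO. TBZ libraries were above DMSO libraries in both lines without overlap, and the shMLKL DMSO libraries were already above the shGFP DMSO libraries. The rise was 1.53-fold in shMLKL cells (log2 change 0.58, SE 0.0773, limma adjusted p = 0.000962) and 19.5-fold in shGFP cells (3.91, SE 0.0773, limma adjusted p = 3.27e-08). The difference of the log2 changes was −3.34 (95% interval −3.59 to −3.08, limma adjusted p = 4.78e-06).

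DUSP1 lies at chr5:172195093-172198203 on the minus strand of hg19. Its promoter window is printed beside those of DUSP8, the only other one of the 8 members with a window that holds the same motif, and of DUSP6, whose TBZ effects were close in both lines. Each window is 300 bases of GRCh38.p14 around the gene start in RefSeq, read 5′ to 3′ on the minus strand. They lie at chr5:172771146-172771445 for DUSP1, chr11:1572222-1572521 for DUSP8 and chr12:89352452-89352751 for DUSP6. Capitals mark the cyclic AMP response element (CRE) letters TGACGTCA, a palindrome searched on both strands.
DUSP1: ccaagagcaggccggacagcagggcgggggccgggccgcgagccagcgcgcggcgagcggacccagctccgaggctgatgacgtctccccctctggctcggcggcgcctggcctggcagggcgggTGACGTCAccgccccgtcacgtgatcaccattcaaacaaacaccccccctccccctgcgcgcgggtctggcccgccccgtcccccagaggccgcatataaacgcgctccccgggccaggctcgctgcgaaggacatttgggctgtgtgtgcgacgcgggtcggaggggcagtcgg
DUSP8: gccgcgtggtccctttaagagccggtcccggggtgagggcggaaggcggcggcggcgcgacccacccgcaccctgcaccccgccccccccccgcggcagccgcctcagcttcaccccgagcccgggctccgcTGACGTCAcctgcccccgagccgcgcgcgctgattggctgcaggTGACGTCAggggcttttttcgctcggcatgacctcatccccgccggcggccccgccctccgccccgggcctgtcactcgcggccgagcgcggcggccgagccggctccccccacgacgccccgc
DUSP6: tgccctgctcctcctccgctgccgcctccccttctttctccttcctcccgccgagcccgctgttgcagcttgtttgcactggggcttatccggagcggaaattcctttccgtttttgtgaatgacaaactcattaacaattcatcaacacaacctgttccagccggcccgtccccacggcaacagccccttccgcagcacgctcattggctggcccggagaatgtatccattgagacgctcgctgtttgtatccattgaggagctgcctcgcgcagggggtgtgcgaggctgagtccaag
The CRE letters began 125 bases before the start in DUSP1, and 118 and 74 bases before it in DUSP8. They were found in 2 of 8 members with a window and in 1.85% of 35116 RefSeq windows of that length. The AP-1 letters TGANTCA were in 0 of 8 members, against 7.71% of all windows. A loose NF-kB pattern, GGG and CC with 5 free bases between them, was in 8 of 8 members, against 58.7% of all windows, so it occurs in most windows. GC content was 73.3% in the DUSP1 window, 78.3% in that of DUSP8 and 58.3% in that of DUSP6. All 3 motifs were searched on both strands, and a match is a description of the sequence only. The end of the DUSP1 and DUSP6 windows was found in a sense transcript of the gene, that of the DUSP8 window was not.

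DUSP5, a nuclear enzyme that binds and dephosphorylates ERK, stood at 24.6 and 24.7 FPKM in shMLKL TBZ cells, against 18.2 and 19.3 FPKM in shMLKL DMSO cells. The shGFP cells had 35.0 and 31.7 FPKM under TBZ, against 4.64 and 5.43 FPKM in DMSO. As with DUSP1, all TBZ libraries were above the DMSO libraries of their line, and the DMSO libraries of the lines lay far apart. The rise was 1.31-fold in shMLKL cells (log2 change 0.37, SE 0.0734, limma adjusted p = 0.00582) and 6.62-fold in shGFP cells (2.51, SE 0.0734, limma adjusted p = 1.89e-07). The difference was −2.13 (95% interval −2.38 to −1.89, limma adjusted p = 2.08e-05).

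DUSP2, a nuclear phosphatase first known from activated lymphocytes, stood at 0.134 and 0.0455 FPKM in shMLKL TBZ cells and at 0.293 and 0.158 FPKM in shMLKL DMSO cells. Among shGFP libraries it reached 3.53 and 4.07 FPKM under TBZ, against 0.529 and 0.615 FPKM in DMSO. Only the shGFP TBZ pair was above 1 FPKM. It rose 6.65-fold in shGFP cells (log2 change 1.61, SE 0.104, limma adjusted p = 1.22e-05). In shMLKL cells the log2 change was −0.17 (95% interval −0.411 to 0.0734, limma adjusted p = 0.243), and the difference was −1.78 (limma adjusted p = 0.000248).

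DUSP4, a nuclear phosphatase of ERK and JNK, ran the other way. It stood at 3.30 and 3.49 FPKM in shMLKL TBZ cells, against 10.1 and 11.4 FPKM in shMLKL DMSO cells. In shGFP cells it stood at 2.28 and 2.43 FPKM under TBZ, against 4.4 and 4.86 FPKM in DMSO. The TBZ libraries were below the DMSO libraries in both lines without overlap. The log2 change was −1.41 in shMLKL cells (SE 0.0785, limma adjusted p = 1.12e-05) and −0.75 in shGFP cells (SE 0.0785, limma adjusted p = 0.000165). The difference was −0.67 (95% interval −0.926 to −0.408, limma adjusted p = 0.00635), the fall being larger in shMLKL cells.

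The cytoplasmic ERK-selective members were the ones whose TBZ effect was not called different between the lines. DUSP6, whose transcription is a common readout of ERK activity, stood at 30.1 and 31.5 FPKM in shMLKL TBZ cells, against 22.6 and 21.1 FPKM in shMLKL DMSO cells. Its shGFP libraries stood at 23.8 FPKM in both TBZ libraries, against 16.2 and 16.7 FPKM in DMSO. Both lines were higher under TBZ without overlap, and shMLKL cells were above shGFP cells in each condition. The rise was 1.41-fold in shMLKL cells (log2 change 0.48, SE 0.0465, limma adjusted p = 0.000196) and 1.45-fold in shGFP cells (0.51, SE 0.0465, limma adjusted p = 8.26e-05). The difference was −0.03, with a 95% interval of −0.181 to 0.126 (limma adjusted p = 0.786).

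DUSP7, the close relative of DUSP6, was low throughout. It stood at 0.809 and 0.978 FPKM in shMLKL TBZ cells, against 0.552 and 0.599 FPKM in shMLKL DMSO cells. The shGFP cells had 1.78 and 1.95 FPKM under TBZ, against 1.07 and 1.24 FPKM in DMSO. TBZ libraries were above DMSO libraries in each line. The rise passed in shGFP cells (log2 change 0.41, SE 0.0898, limma adjusted p = 0.00601). In shMLKL cells the change of 0.26 missed the threshold (SE 0.0898, limma adjusted p = 0.0533). It passed with a pseudocount of 0.5 or 0.1 and with the replicate number as a block (limma adjusted p = 0.0444, 0.0336 and 0.0483). The difference was −0.15 (95% interval −0.445 to 0.148, limma adjusted p = 0.426).

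**Figure D2:**
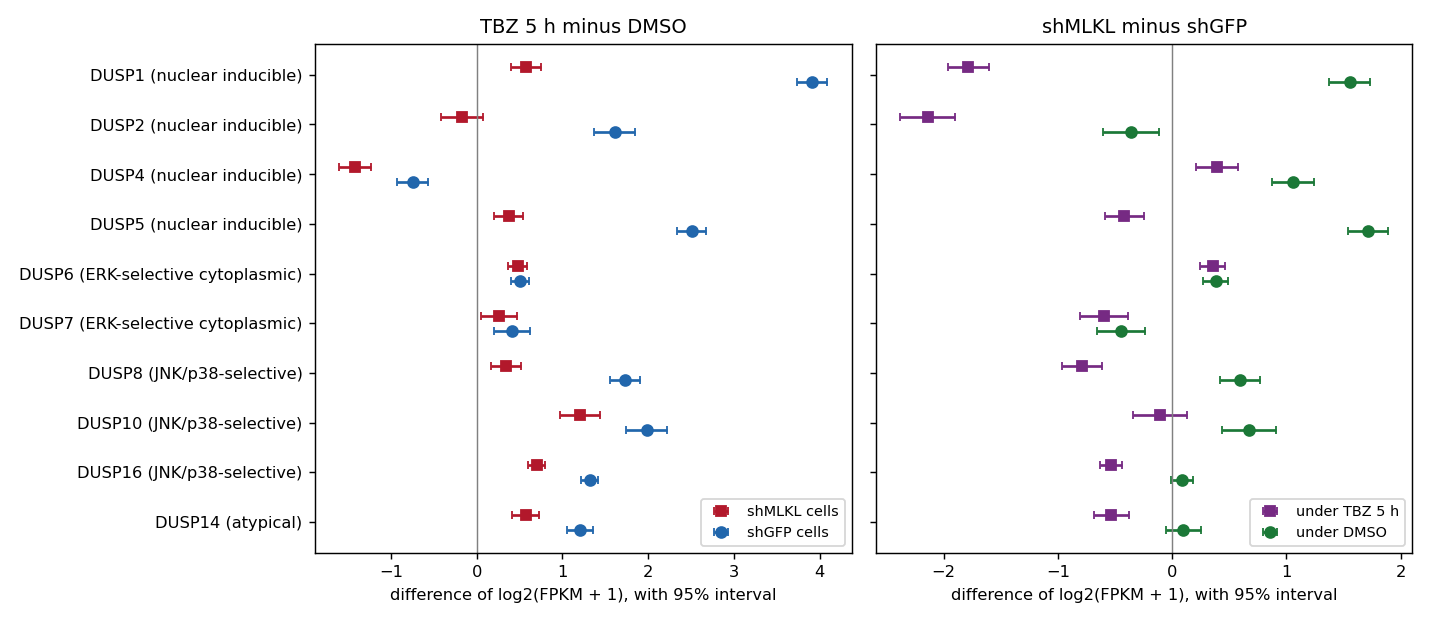
Change of each phosphatase transcript on the log2(FPKM + 1) scale with its 95% interval, TBZ minus DMSO in each line on the left and shMLKL minus shGFP in each condition on the right. The shMLKL and shGFP points lie together for DUSP6 (0.48 and 0.51) and far apart for DUSP1 (0.58 and 3.91); on the right DUSP1, DUSP5 and DUSP8 lie below 0 under TBZ and above 0 under DMSO.

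The 3 members that prefer JNK and p38 rose in both lines. DUSP10, which dephosphorylates JNK and p38, stood at 4.36 and 4.00 FPKM in shMLKL TBZ cells, against 1.21 and 1.28 FPKM in shMLKL DMSO cells. Among shGFP libraries it reached 5.12 and 4.06 FPKM under TBZ, against 0.429 and 0.392 FPKM in DMSO. The TBZ libraries of the lines overlapped, while the DMSO libraries did not. The rise was 3.36-fold in shMLKL cells (log2 change 1.21, SE 0.101, limma adjusted p = 9.38e-05), the largest log2 rise among the members in that line, and 11.2-fold in shGFP cells (1.98, SE 0.101, limma adjusted p = 3.51e-06). The difference was −0.78 (95% interval −1.11 to −0.441, limma adjusted p = 0.00966).

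DUSP8, a JNK and p38 phosphatase, stood at 6.43 and 6.72 FPKM in shMLKL TBZ cells, against 5.11 and 4.87 FPKM in shMLKL DMSO cells. In shGFP cells it stood at 11.8 and 12.4 FPKM under TBZ, against 2.72 and 3.22 FPKM in DMSO. The 4 groups stood in the order shGFP TBZ, shMLKL TBZ, shMLKL DMSO, shGFP DMSO from high to low. By their means they stood in the same order in DUSP1, DUSP5, DUSP10, DUSP14 and DUSP16. The windows of DUSP10, DUSP14 and DUSP16 lack the CRE letters and DUSP5 has no window, and any part of the motif in the order was not tested. The rise was 1.32-fold in shMLKL cells (log2 change 0.34, SE 0.0747, limma adjusted p = 0.00976) and 4.07-fold in shGFP cells (1.72, SE 0.0747, limma adjusted p = 1.46e-06). The shMLKL call was lost without shMLKL DMSO replicate 2 (0.31, limma adjusted p = 0.0539) and without shMLKL TBZ replicate 2 (0.31, limma adjusted p = 0.0569). The difference was −1.39 (95% interval −1.63 to −1.14, limma adjusted p = 0.000169).

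DUSP16, a JNK phosphatase that shuttles between nucleus and cytoplasm, stood at 18.0 and 18.2 FPKM in shMLKL TBZ cells, against 10.7 and 10.8 FPKM in shMLKL DMSO cells. Its shGFP libraries stood at 26.5 and 26.8 FPKM under TBZ, against 9.81 and 10.3 FPKM in DMSO. The lines were close in DMSO and apart under TBZ. The rise was 1.68-fold in shMLKL cells (log2 change 0.70, SE 0.042, limma adjusted p = 1.67e-05) and 2.65-fold in shGFP cells (1.32, SE 0.042, limma adjusted p = 2.77e-07). The difference was −0.62 (95% interval −0.76 to −0.482, limma adjusted p = 0.000526).

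DUSP14, the atypical member, stood at 28.7 and 27.7 FPKM in shMLKL TBZ cells, against 20.1 and 17.3 FPKM in shMLKL DMSO cells. The shGFP cells had 40.6 and 41.8 FPKM under TBZ, against 17.7 and 17 FPKM in DMSO. The DMSO libraries of the lines overlapped and the TBZ libraries did not, much as for DUSP16. The rise was 1.51-fold in shMLKL cells (log2 change 0.57, SE 0.0659, limma adjusted p = 0.000458) and 2.37-fold in shGFP cells (1.20, SE 0.0659, limma adjusted p = 5.04e-06). The difference was −0.63 (95% interval −0.848 to −0.413, limma adjusted p = 0.0038).

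Set side by side, the median difference of the TBZ effects was −1.96 over the 4 nuclear members, −0.78 over the 3 that prefer JNK and p38, and −0.09 over the 2 cytoplasmic ERK-selective members, against 0.10 over all genes. These medians describe small sets and were not tested against each other, and they depend on the pseudocount. With 0.1 in place of 1, the difference was −1.52 for DUSP10, the middle gene of the JNK and p38 members, against −0.78, and −3.33 for DUSP2, against −1.78, which put DUSP2 past DUSP5 (−2.31 with 0.1). In shMLKL cells the median TBZ change was 0.10 for the nuclear members, 0.70 for the JNK and p38 members and 0.37 for the ERK-selective members. In shGFP cells it was 2.06 for the nuclear members, 1.72 for the JNK and p38 members and 0.46 for the ERK-selective members.

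The summed level of the 10 transcripts was 134 FPKM in both shMLKL TBZ libraries, against 99.5 and 98.4 FPKM in shMLKL DMSO. It was 213 and 209 FPKM in shGFP TBZ, against 60.4 and 63.2 FPKM in shGFP DMSO. The sum was therefore higher under TBZ in both lines, and the shMLKL DMSO sum lay between the shGFP sums. Nuclear members made up 34.0 and 33.5% of the sum in shMLKL TBZ libraries, against 39.4 and 43.2% in shMLKL DMSO. In shGFP cells they made up 48.6 and 46.9% under TBZ, against 20.6 and 22.7% in DMSO. The ERK-selective share was 23.1 and 24.2% in shMLKL TBZ, against 23.2 and 22.0% in shMLKL DMSO. In shGFP cells it was 12.0 and 12.4% under TBZ, against 28.6 and 28.4% in DMSO. The share of the JNK and p38 members ranged only between 17.2 and 22.0% over all 8 libraries.

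**Figure D3:**
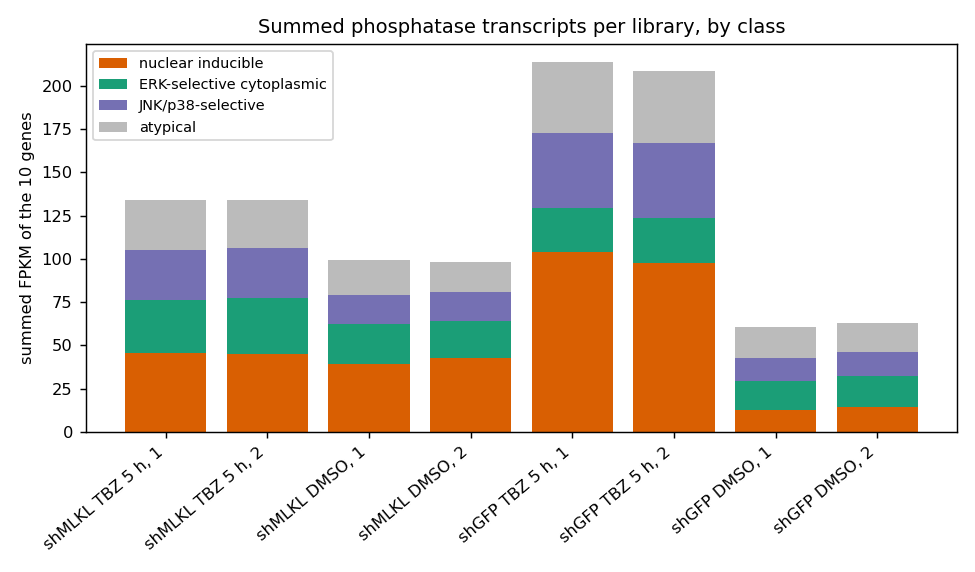
Summed FPKM of the 10 phosphatase transcripts in each of the 8 libraries, stacked by class, on an axis that starts at 0. The nuclear inducible part is tallest in the shGFP TBZ libraries (48.6 and 46.9% of the sum) and shortest in the shGFP DMSO libraries (20.6 and 22.7%).

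The order of levels changed with the group. In shMLKL TBZ cells it was DUSP6, DUSP14, DUSP5, DUSP16, DUSP1, DUSP8, DUSP10, DUSP4, DUSP7, DUSP2, with no overlap between neighbours. In shMLKL DMSO cells it was DUSP6, DUSP5, DUSP14, DUSP1, DUSP16, DUSP4, DUSP8, DUSP10, DUSP7, DUSP2, and libraries overlapped between DUSP5 and DUSP14 and among DUSP1, DUSP16 and DUSP4. In shGFP TBZ cells it was DUSP1, DUSP14, DUSP5, DUSP16, DUSP6, DUSP8, DUSP10, DUSP2, DUSP4, DUSP7, and libraries of DUSP10 and DUSP2 overlapped. In shGFP DMSO cells it was DUSP14, DUSP6, DUSP16, DUSP5, DUSP4, DUSP1, DUSP8, DUSP7, DUSP2, DUSP10, and libraries overlapped between DUSP5 and DUSP4 and between DUSP1 and DUSP8. DUSP1 thus led in shGFP TBZ cells and stood at position 5 in shMLKL TBZ cells.

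The lines were also compared within each condition. Under TBZ, 7 members were lower and 2 higher in shMLKL than in shGFP cells, where 51.7% of all genes were called, 31.0% as lower and 20.7% as higher. The median member change was −0.53, against −0.06 over all genes. The share of higher calls among all called genes was 54.6% with medians set equal, against 40% as deposited. DUSP2 averaged 0.0899 ± 0.0627 FPKM in shMLKL TBZ cells and 3.80 ± 0.381 FPKM in shGFP TBZ cells (SD, n = 2 each), a log2 change of −2.14 (limma adjusted p = 7.43e-06). DUSP1 averaged 17.1 ± 0.544 FPKM in shMLKL TBZ cells and 61.3 ± 2.44 FPKM in shGFP TBZ cells, a log2 change of −1.78 (limma adjusted p = 4.79e-06). The other 5 lower members ran between −0.79 (DUSP8) and −0.42 (DUSP5). DUSP2 and DUSP7 passed the filter only through shGFP groups, so their places among the lower members are no support, here or in DMSO. DUSP4 and DUSP6 were higher in shMLKL TBZ cells (0.39 and 0.36, limma adjusted p = 0.00472 and 0.000617). DUSP10 was not called (−0.11, 95% interval −0.342 to 0.131, limma adjusted p = 0.415).

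In DMSO, 6 members were higher and 2 lower in shMLKL than in shGFP cells, where 63.1% of all genes were called, 18.3% as higher and 44.8% as lower. The median member change was 0.49, against −0.16 over all genes. DUSP5 was 3.73-fold higher (log2 change 1.72, limma adjusted p = 2.92e-06), DUSP1 3.54-fold (1.55, limma adjusted p = 5.18e-06), DUSP10 3.03-fold (0.67, limma adjusted p = 0.000875) and DUSP4 2.31-fold (1.06, limma adjusted p = 2.88e-05). DUSP8 was 1.68-fold and DUSP6 1.32-fold higher in shMLKL cells (limma adjusted p = 0.000353 and 0.000299). DUSP7 was lower in shMLKL cells (log2 change −0.45, limma adjusted p = 0.00329), a call lost with quantile normalization (−0.18, limma adjusted p = 0.132).

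DUSP2 was lower in shMLKL DMSO cells (−0.36, limma adjusted p = 0.0174), but the call was lost with library medians set equal (−0.19, limma adjusted p = 0.144) and with quantile normalization (−0.11, limma adjusted p = 0.367). It was also lost without shGFP DMSO replicate 2 (−0.32, limma adjusted p = 0.073) and without shMLKL DMSO replicate 2 (−0.28, limma adjusted p = 0.0956). DUSP16 and DUSP14 were not called (0.09 and 0.10, limma adjusted p = 0.106 and 0.223), with 95% intervals of −0.0111 to 0.185 and −0.0551 to 0.253. Both were called as higher with medians set equal (0.26 and 0.27, limma adjusted p = 0.00171 and 0.00749). The share of higher calls among all called genes in this comparison was 53.1% with medians set equal, against 29% as deposited. DUSP1, DUSP5 and DUSP8 were thus lower in shMLKL cells under TBZ and higher in shMLKL cells in DMSO.

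The genes whose log2(FPKM + 1) followed a member most closely were sought among 7240 other genes over the 8 libraries, a description of 4 groups of paired points and not a test. For DUSP1 they were JUND (r = 0.9979), CAPRIN2 (0.997) and DUSP8 (0.9949). JUND, an AP-1 subunit, averaged 16.7 FPKM in shMLKL TBZ, 13.7 FPKM in shMLKL DMSO, 26.0 FPKM in shGFP TBZ and 9.61 FPKM in shGFP DMSO, a narrower span than DUSP1. For DUSP10 they were SMAD3 (0.9944), a transcription factor of TGF-beta signalling, HIVEP2 (0.9942) and EIF2AK3 (0.9939), a kinase of the unfolded protein response. For DUSP6 they were SKP1 (0.9988), NRBF2 (0.9933) and RELL1 (0.9926). For DUSP4 they were DSG2 (0.9986), a desmosomal cadherin, FGF19 (0.9937) and MALL (0.992). FGF19 averaged 1.81 FPKM in shMLKL TBZ, 13.7 FPKM in shMLKL DMSO, 0.559 FPKM in shGFP TBZ and 3.36 FPKM in shGFP DMSO, the same order of groups as DUSP4.

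Around the phosphatases, the MAP kinase genes went in both directions. The medians of this and the following lists stand against −0.00437 over all genes in shMLKL cells and −0.12 in shGFP cells, and no list was tested as a set. Their counts stand against 20.0% of all genes rising and 17.6% falling in shMLKL cells, and 19.1% rising and 37.3% falling in shGFP cells. Of 9 MAP kinase genes tested, 4 rose and 2 fell under TBZ in shMLKL cells (median 0.17), and 3 rose and 2 fell in shGFP cells (median −0.03). MAPK8, which encodes a JNK, averaged 19.5 FPKM in shMLKL TBZ and 16.4 FPKM in shMLKL DMSO cells, and 14.9 FPKM in shGFP TBZ and 9.78 FPKM in shGFP DMSO cells. MAPK3, which encodes an ERK, fell to 7.72 FPKM in shMLKL TBZ cells, against 11.4 FPKM in shMLKL DMSO cells, and to 10.8 FPKM in shGFP TBZ cells, against 18.3 FPKM in shGFP DMSO cells. MAPK14, which encodes a p38, rose 1.39-fold in shMLKL cells and 1.14-fold in shGFP cells.

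Of 20 kinases upstream of them, 9 rose and 4 fell in shMLKL cells and 8 rose and 7 fell in shGFP cells, with medians of 0.13 and −0.02. The shGFP falls were near the 37.3% over all genes. MAP2K3, which phosphorylates p38, rose 2.16-fold in shMLKL cells (46.0 FPKM under TBZ, 21.3 FPKM in DMSO) and 3.45-fold in shGFP cells (55.3 FPKM under TBZ, 16.0 FPKM in DMSO). MAP3K14, the kinase of the non-canonical NF-kB pathway, rose 5.33-fold in shMLKL cells and 8.21-fold in shGFP cells. MAP3K8, which feeds the ERK pathway downstream of TNF, rose 2.90-fold in shMLKL cells and 3.88-fold in shGFP cells.

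Of 11 other negative regulators of ERK signalling tested, not all of them feedback genes, 1 rose and 5 fell in shMLKL cells (median −0.12), where 20.0% of all genes rose and 17.6% fell. In shGFP cells 4 rose and 5 fell (median 0.00442), where 19.1% of all genes rose and 37.3% fell, so falls outnumbered rises over all genes there too. ERRFI1, an inhibitor of the EGF receptor, averaged 91.6 FPKM in shMLKL TBZ and 238 FPKM in shMLKL DMSO cells, a fall (log2 change −1.37, limma adjusted p = 1.9e-06). In shGFP cells it averaged 361 FPKM under TBZ and 220 FPKM in DMSO, a rise (0.71, limma adjusted p = 3.07e-05). The difference was −2.08 (limma adjusted p = 6.78e-06). SPRY1, which restrains receptor tyrosine kinase signalling, fell in both lines. It averaged 1.86 FPKM in shMLKL TBZ cells, against 5.10 FPKM in shMLKL DMSO cells, and 1.82 FPKM in shGFP TBZ cells, against 6.74 FPKM in shGFP DMSO cells. Its relative SPRY4 rose in both lines, 1.30-fold in shMLKL cells and 1.70-fold in shGFP cells. Of 12 other dual-specificity phosphatases tested, 2 rose and 4 fell in shMLKL cells, and 1 rose and 5 fell in shGFP cells (medians −0.11 and −0.16), the shGFP falls being near the 37.3% over all genes. DUSP12 and SSH3 fell in both lines.

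Most of the listed transcription targets of ERK rose under TBZ. Of 14 tested, 9 rose and 3 fell in shMLKL cells (median 0.59), and 10 rose and 2 fell in shGFP cells (median 1.86). The difference was called for 11 of them, 10 with a lower effect in shMLKL cells, against 7.66% of all genes in that direction. FOS, an AP-1 subunit, averaged 7.71 FPKM in shMLKL TBZ and 4.52 FPKM in shMLKL DMSO cells, and 59.0 FPKM in shGFP TBZ and 4.67 FPKM in shGFP DMSO cells. EGR1, an immediate early transcription factor, rose 6.53-fold in shMLKL cells and 23.2-fold in shGFP cells. MYC and the ETS factor gene ETV4 fell in both lines, to 26.6 and 11.8 FPKM in shMLKL TBZ cells, against 41.1 and 16.7 FPKM in shMLKL DMSO cells, and to 30.9 and 14 FPKM in shGFP TBZ cells, against 55.7 and 21.0 FPKM in shGFP DMSO cells.

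Another list held 19 genes for substrates and effectors of JNK and p38, some of which are also ERK substrates. Of these, 8 rose and 3 fell in shMLKL cells (median 0.14), and 9 rose and 4 fell in shGFP cells (median 0.12). The AP-1 subunit gene JUN rose 2.82-fold in shMLKL cells and 13.4-fold in shGFP cells. ATF3, a stress-induced factor, rose 2.42-fold in shMLKL cells and 12.9-fold in shGFP cells. ZFP36, which destabilises AU-rich mRNAs, rose 1.59-fold in shMLKL cells and 7.15-fold in shGFP cells. All 3 had a called difference, of −2.17, −2.35 and −2.13 (limma adjusted p = 6.78e-06, 6.78e-06 and 7.42e-06). They were named for their large shGFP change. Over the list of 19, 6 had a called difference, all lower, where 22.3% of all genes were called and 7.66% as lower. The median difference over the list was −0.10, against 0.10 over all genes.

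The first experiment had 1 library a group, so no test was made, and its times differ from those of the replicated one. MLKL stood at 2.14 FPKM in shMLKL TBZ 12 h and 0.854 FPKM in shMLKL DMSO cells, and at 6.16 FPKM in parental TBZ and 6.31 FPKM in parental DMSO cells. Values are FPKM summed over RefSeq transcripts, with the deposited Cufflinks interval where one is given. An entry of 89 bases at chr1:567705-567793 (hg19) held 83.3 to 89.9% of all FPKM in each of the 4 libraries, and its part in the differences between them was not tested. In parental cells 6 members were more than 2-fold higher under TBZ at 4 h than in DMSO on the log2(FPKM + 1) scale and DUSP4 was more than 2-fold lower, where 23.3% of 10282 genes were past that fold, 9.50% higher and 13.8% lower. The median member change was 1.79, against −0.23 over all genes. In shMLKL cells at 12 h, 2 members (DUSP1 and DUSP5) were more than 2-fold higher and 0 lower, where 20.6% of 10416 genes were past that fold, 9.51% higher and 11.1% lower. The median member change was 0.22, against −0.14 over all genes.

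DUSP1 stood at 141 FPKM (interval 135 to 148) in parental TBZ cells and 10.2 FPKM (9.38 to 11) in parental DMSO cells, and at 12.4 FPKM (11.6 to 13.2) in shMLKL TBZ 12 h cells and 3.91 FPKM (3.44 to 4.38) in shMLKL DMSO cells. DUSP5 stood at 82.2 FPKM in parental TBZ and 9.24 FPKM in parental DMSO cells, and at 29 FPKM in shMLKL TBZ 12 h and 6.02 FPKM in shMLKL DMSO cells. Both were higher under TBZ in each line. DUSP10 stood at 7.22 FPKM in parental TBZ and 0.581 FPKM in parental DMSO cells, a ratio of 12.4. It passed the minimum of 1 FPKM in the first experiment only through the TBZ libraries, where it is high, so its place among the 6 is no support for its rise. DUSP8 stood at 56.0 FPKM in parental TBZ and 11.1 FPKM in parental DMSO cells, DUSP2 at 14.7 FPKM in parental TBZ and 2.39 FPKM in parental DMSO cells, and DUSP14 at 82.1 FPKM in parental TBZ and 31.1 FPKM in parental DMSO cells. DUSP7 stood at 4.46 FPKM in parental TBZ and 2.34 FPKM in parental DMSO cells, short of 2-fold. These 5 were all higher in the parental TBZ library.

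In shMLKL cells at 12 h the ratios of the same genes were lower. DUSP8 stood at 10.7 FPKM under TBZ and 4.93 FPKM in DMSO, and DUSP10 at 1.81 FPKM under TBZ and 0.45 FPKM in DMSO, ratios of 2.17 and 4.03 that fall short of 2-fold once 1 FPKM is added. DUSP14 stood at 45.8 FPKM under TBZ and 33.9 FPKM in DMSO. DUSP2 (3.59 FPKM under TBZ, 3.80 FPKM in DMSO) and DUSP7 (3.01 FPKM under TBZ, 2.99 FPKM in DMSO) were nearly level. DUSP4 was lower under TBZ in both lines, at 5.42 FPKM in parental TBZ and 12.8 FPKM in parental DMSO cells, and at 4.15 FPKM in shMLKL TBZ 12 h and 7.48 FPKM in shMLKL DMSO cells.

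DUSP6 and DUSP16 did not have the direction they had in the replicated experiment. DUSP6 stood at 18.2 FPKM (17.2 to 19.3) in parental TBZ and 28.4 FPKM (26.9 to 30.0) in parental DMSO cells, and at 13.5 FPKM in shMLKL TBZ 12 h and 25.4 FPKM in shMLKL DMSO cells. DUSP16 stood at 4.68 FPKM (4.26 to 5.09) in parental TBZ and 5.97 FPKM (5.47 to 6.48) in parental DMSO cells. In shMLKL cells it stood at 2.23 FPKM (1.98 to 2.47) under TBZ at 12 h and 2.54 FPKM (2.25 to 2.83) in DMSO. The shMLKL intervals overlap, so its direction in that line is uncertain. Relative to the median of all genes (−0.23 in parental and −0.14 in shMLKL cells), DUSP16, with changes of −0.30 and −0.13 in those lines, was about level.

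The lines in DMSO also stood differently. All 8 members called between shMLKL and shGFP cells in DMSO had the opposite direction between the shMLKL and parental DMSO libraries. DUSP1 was at 3.91 FPKM in shMLKL and 10.2 FPKM in parental cells (a ratio of 0.384), and DUSP8 at 4.93 FPKM in shMLKL and 11.1 FPKM in parental cells (0.443). The ratio was 0.582 for DUSP4, 0.651 for DUSP5, 0.774 for DUSP10 and 0.893 for DUSP6. DUSP10 was under 1 FPKM in both lines (0.45 FPKM in shMLKL and 0.581 FPKM in parental cells), with overlapping summed intervals, so its direction is uncertain. DUSP2 and DUSP7, lower in shMLKL than in shGFP cells, had ratios of 1.59 and 1.28. Parental cells carry no hairpin and each value is 1 library, so these are not the same comparison. No share or median over all genes was computed for these libraries, so the part of a general shift in the ratios was not tested. All DUSP6 signal was assigned to 1 RefSeq transcript (NM_001946) and all DUSP4 signal to NM_001394, with the second transcript of each at 0 in the 4 libraries.

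**Figure D4:**
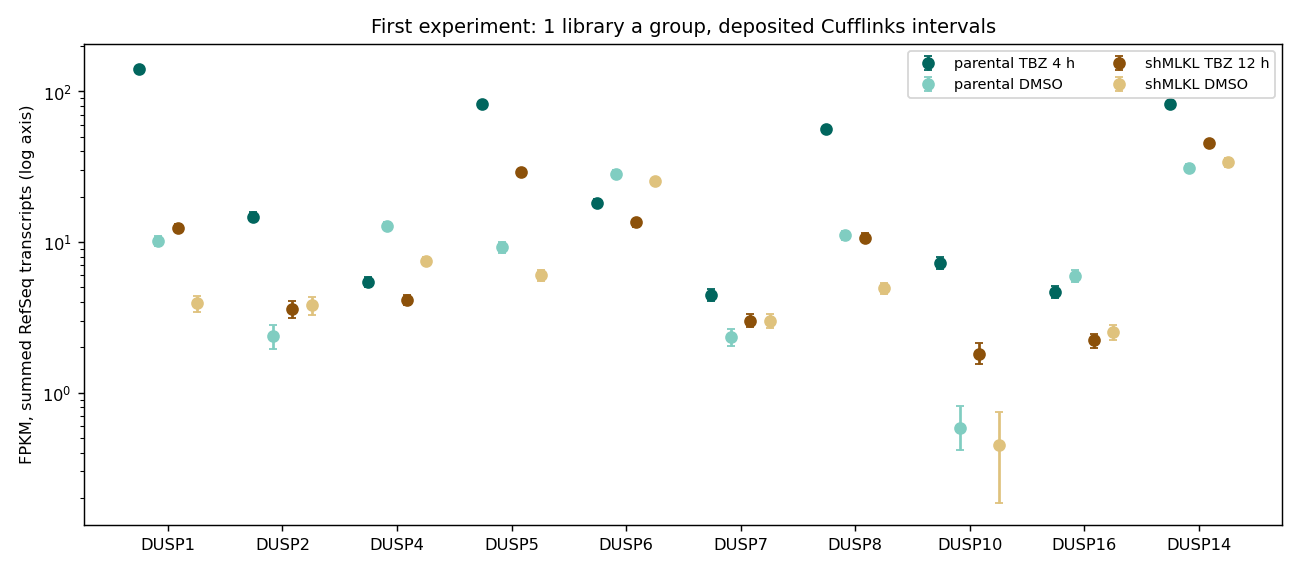
Summed RefSeq FPKM of each phosphatase gene in the 4 single libraries of the first experiment, on a log axis; lines are the deposited Cufflinks intervals, which cover estimation error within a library only. DUSP1 reached 141 FPKM in parental TBZ 4 h cells against 10.2 FPKM in parental DMSO cells. DUSP4, DUSP6 and DUSP16 lay below their DMSO values in both lines, DUSP16 with overlapping intervals in shMLKL cells.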

How the data were processed

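Libraries were made with a stranded polyA kit and read as 100 nt pairs on a HiSeq2000, per the labels' protocols. TopHat2 2.0.13, Cufflinks 2.2.1, STAR 2.4.0f1, GATK and hg19 are named in the submitters' processing notes, without their roles. The authors deposited 1 gene table for the 8 libraries of the replicated experiment; its header names no unit, and its values were taken as FPKM. For the 4 earlier libraries there is a Cufflinks annotation each, in which the authors deposited a score column and, as attributes, FPKM and its interval; RefSeq transcripts were summed per gene (48725 of 49336 matched). No file used here holds read counts, so depth is known only in relative terms, from the commonest ratio of values of at most 0.15 FPKM.

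The highest-mean line was kept per symbol, which touched no member (384 symbols stood on several of the 29437 lines). Genes with a group mean of at least 1 FPKM (10364) were fitted as log2(FPKM + 1), which understates changes of low genes, in limma 3.58.1 (R 4.3.3), with a mean for each of the 4 groups, all 8 libraries, and variances moderated along a trend (residual degrees of freedom 4, prior 3.46). P-values were two-sided and adjusted by Benjamini-Hochberg within a contrast, and genes under 0.05 were called. Simulated data for TBZ against DMSO in shGFP had 200 changed among 10364 genes in 20 runs, far fewer than the 56.4% called in the data. Changed genes were drawn only from those averaging above 2 on the log2(FPKM + 1) scale. DUSP2, DUSP7 and DUSP10 average less, so recovery at their levels was not tested. Simulated noise was normal, with variances from a trend in these data and the prior of the fit. The fitted model therefore held there by design, and recovery in the real data may be lower. The fit recovered 82.4% of genes changed by 0.5 on the log2 scale and 98.0% of those changed by 1. It recovered 97.8% of those changed by −1 and 99.9% of those changed by 2, with a mean of 8.95 false calls. Libraries of 1 group correlated at 0.989 to 0.992, of different groups at 0.93 to 0.968. Tables were handled with Python 3.11.15, pandas 2.3.3 and numpy 2.4.6.

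The members, classes and gene lists were chosen with earlier results of these data known, so no list was tested. Named genes were the members, MLKL, up to 3 called genes per direction from each list (largest change in shGFP, with 5 FPKM or more where higher), and the 3 genes most like DUSP1, DUSP4, DUSP6 and DUSP10. Promoters are RefSeq windows of GRCh38.p14, which cover 8 of the 10 members, all but DUSP4 and DUSP5. The hg19 coordinates are those of the deposited transcripts. Alternatives were another pseudocount, filter, scaling, line choice, sample set, the replicate block and each library left out.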

Additional observations from a re-analysis of the deposited data

Results flagged for a closer look

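The TBZ effect differed between shMLKL and shGFP cells for 8 phosphatase genes by the interaction term of the limma fit, as differences of log2 changes, shMLKL minus shGFP. DUSP1 differed by −3.34, DUSP5 by −2.13 and DUSP2 by −1.78. DUSP8 differed by −1.39 and DUSP10 by −0.78. DUSP4 differed by −0.67, DUSP14 by −0.63 and DUSP16 by −0.62. For DUSP4 a larger fall in shMLKL cells gave the negative value, and for the others a smaller rise or, in DUSP2, a change that was not called. For DUSP1, DUSP5, DUSP8, DUSP10 and DUSP4 the shMLKL cells started from a higher DMSO level than the shGFP cells, and the part of that starting level in the difference was not tested. In the single libraries of the first experiment these 5 genes were lower in shMLKL DMSO cells than in parental DMSO cells (ratios of 0.384 for DUSP1, 0.651 for DUSP5, 0.443 for DUSP8, 0.774 for DUSP10 and 0.582 for DUSP4). The direction for DUSP10 is uncertain, since it was under 1 FPKM in both of those libraries. No median over all genes was computed for them.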

How the results depend on the processing

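The 5 counts of called members kept within 1.5 times of their values in all alternatives but one: with genes at 5 FPKM or more, 5 members were called between the lines under DMSO, against 8 as reported, since fewer members are tested there. Leaving out each library in turn gave 7 to 8 called members for TBZ in shMLKL, 10 for TBZ in shGFP, 8 for the difference, 9 between the lines under TBZ and 7 to 8 under DMSO; a group left with 1 library is assumed to vary like the others. In the first experiment 4 members were past 2-fold in shMLKL cells at 12 h with a pseudocount of 0.1 and 4 with library medians set equal, against 2 as reported. Of 882 values for single members under alternatives, 4 changed sign, none of a called result, and the cause was not tested: DUSP10 between the lines under TBZ without shGFP TBZ replicate 1 (0.0318, in a range of −0.242 to 0.0318 over the libraries left out), the DUSP6 difference without shMLKL DMSO replicate 1 (0.0196) and without shMLKL TBZ replicate 1 (0.00461, in a range of −0.0752 to 0.0196), and DUSP14 between the lines under DMSO without shMLKL DMSO replicate 1 (−0.0026, in a range up to 0.20). DUSP14 was called at that upper value, without shMLKL DMSO replicate 2 (limma adjusted p = 0.0171). Libraries that share a replicate number had residual correlations between −0.066 and 0.0282, so the numbers were not taken as pairs. With the replicate number as a block, 9 members were called for TBZ in shMLKL, DUSP7 being added, 10 for TBZ in shGFP and 8 for the difference; no other call changed. Over all alternatives 8 calls were gained and 7 lost among single members, of DUSP2, DUSP7, DUSP8, DUSP14 and DUSP16. A pseudocount of 0.1 moved called log2 changes of the low genes by over 1.5 times: DUSP2 to −4.40 between the lines under TBZ, −1.07 under DMSO and 2.54 for TBZ in shGFP, DUSP10 to 1.40 under DMSO and 3.19 for TBZ in shGFP, and DUSP7 to −0.99 under TBZ, −0.89 under DMSO and 0.65 for TBZ in shGFP. With medians set equal DUSP7 under DMSO was −0.28. With 2 libraries a group and no counts, small effects of low genes such as DUSP7 and DUSP2 are the least certain.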

Other observations

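The deposited transcript lists of the first experiment hold assembled fragments just upstream of 2 members. On the strand opposite to DUSP5, fragments began 184 bp before its start in parental TBZ cells (1.41 FPKM, interval 0.591 to 2.22), 125 bp before it in parental DMSO cells (1.13 FPKM, 0.479 to 1.78) and 141 bp before it in shMLKL TBZ 12 h cells (0.921 FPKM, 0.326 to 1.52). On the strand of DUSP6, fragments lay 433 to 942 bp upstream in shMLKL TBZ 12 h cells (0.668 FPKM) and 415 to 819 bp upstream in parental DMSO cells (1.27 FPKM). Their intervals overlap, and no direction is given. DUSP10 was the one member with signal on a second transcript: NR_111939, listed as non-coding, had 0.211 FPKM in shMLKL DMSO cells beside 0.239 FPKM of NM_007207, and was at 0 in the other 3 libraries.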
